A study of Mus musculus with 6 samples.

Results

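The 44 protein-coding collagen genes of the mouse were followed through RNA sequencing of 3 wild-type hearts and 3 Arrdc4 knockout hearts. Members were all rows of the count table, 44 of 49315, whose Ensembl identifier maps to a protein-coding gene with a collagen chain symbol (Col, type number, a, chain number). A further match to that prefix, Col4a3bp, encodes a ceramide transfer protein and was left out. It stood at 38.2 to 50.4 CPM in the 6 hearts. Of the 44 genes, 29 had enough reads to be tested and 15 did not.

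Collagens are trimers of chains with repeating glycine triplets that wind into a triple helix. Fibrillar collagens, chiefly types I and III with type V, form the cables that carry tension between heart muscle bundles and are made mostly by cardiac fibroblasts. Type IV chains form the sheet-like network of the basement membrane around each cardiomyocyte and capillary. FACIT collagens sit on the surface of fibrils, type VI builds beaded filaments at the cell surface, and types XV and XVIII link basement membranes to the matrix beyond.

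The hearts came from C57BL/6 mice, wild type or carrying an Arrdc4 knock-out made by CRISPR-Cas9, and each gave 1 library. Arrdc4 is an alpha-arrestin, an adaptor for ubiquitin ligases. The sources used here do not give age, sex or litter, or which cells lost the gene. The comparison asks which transcripts differ between knockout and wild-type hearts.

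Libraries held 29974501 to 41036626 counts. Arrdc4 had 349, 307 and 281 reads in wild-type hearts 1 to 3 and 5, 1 and 2 reads in knockout hearts 1 to 3, so that every library matched its label. It was the 1 gene called by edgeR's quasi-likelihood test among 14508 tested, at an adjusted p of 0.00226 (0.00689% of genes called). Cardiomyocyte transcripts marked the tissue, with Myh6 at 9167 to 29523 CPM (counts relative to the scaled library total). Wild-type heart 3 and knockout heart 2 stood apart from the other 4 and close to each other: comparing their counts gave 7.89 as chi-square divided by its degrees of freedom, against 26.8 or more for any other pair. In both, long transcripts were low: genes with summed exons of 7401 bases or more, the top 20% by length, had a median of -0.21 on the log2 scale in each, relative to the mean of all hearts. The same median was -0.01 in wild-type heart 1 and 0.14 in wild-type heart 2, 0.14 in knockout heart 1 and 0.15 in knockout heart 3. Tested collagens are long, with a median exon length of 7464 bases against 4264 for all tested genes, and 15 of 29 fall in that longest set.

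No collagen gene was called different between knockout and wild-type hearts, although 28 of the 29 tested had a higher mean in knockout. Values were higher in knockout for 52.3% of all genes tested. The median log2 fold change, knockout over wild type, was 0.71 over the 29 collagens and 0.01 over all tested genes. The edgeR test gave 0 collagens past an adjusted p of 0.05, where 0.00689% of all genes passed. The counts from DESeq2 and from limma-voom were likewise 0. Without adjustment, 1 collagen had a p under 0.05 in edgeR, Col16a1, against 1.23% of all genes. DESeq2 had 1 such collagen and limma-voom 0. In none of the 29 did the 3 knockout values lie all above or all below the 3 wild-type values, which they did for 2.18% of all genes (above) and 1.90% (below). Spread between hearts left wide intervals. For 2 of 29 collagens, Col4a5 and Col23a1, the 95% interval lay wholly within a factor of 2, as it did for 76.5% of all tested genes.

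**Figure D1:**
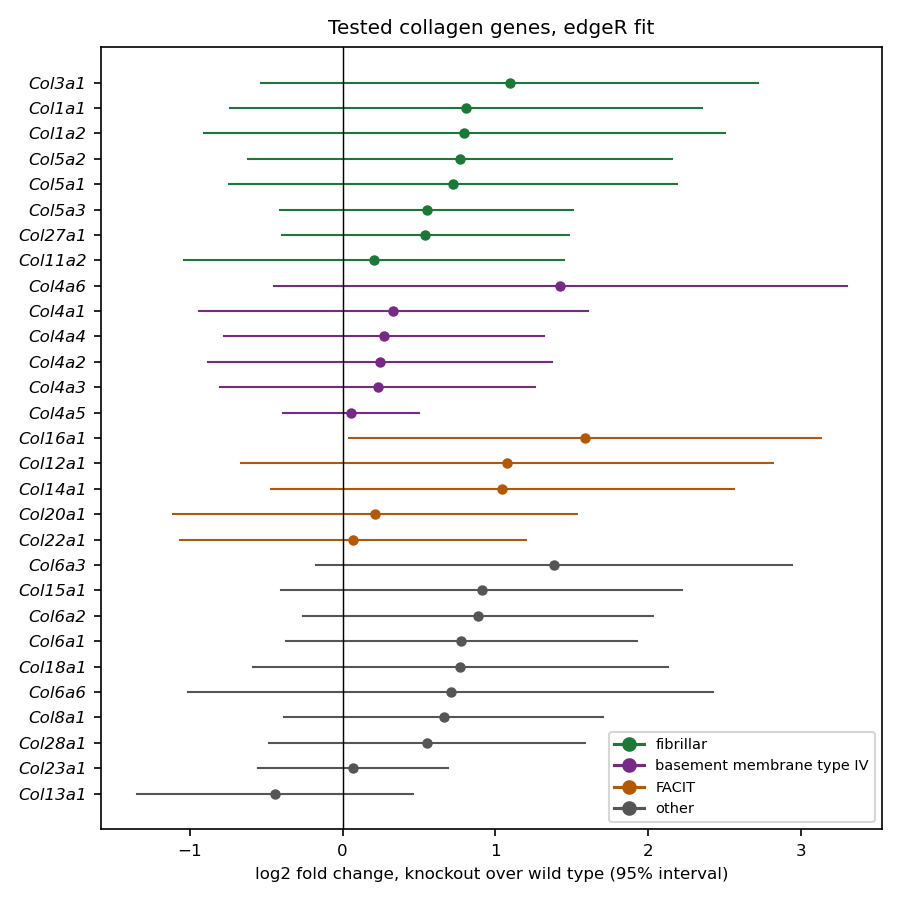
Log2 fold change (x axis, knockout over wild type) of each of the 29 tested collagens with its 95% interval from the edgeR fit, coloured by class. All points but Col13a1 lie above 0, and all intervals but that of Col16a1 (0.04 to 3.13) include 0.

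Scaled by exon length (RPKM, reads per 1000 bases of exon at that scale), the basement membrane chains Col4a1 and Col4a2 stood highest, at 43.9 ± 23.0 and 37.8 ± 17.0 (SD over 6 hearts). The fibrillar chain Col3a1 came next at 16.5 ± 13.1, then Col6a1 at 12.0 ± 6.58, Col15a1 at 9.73 ± 6.13, Col1a1 at 8.64 ± 5.94, Col6a2 at 7.38 ± 4.28 and Col1a2 at 6.75 ± 4.86. From Col3a1 to Col1a2, neighbours in this order lie within their spread over hearts. These genes largely share that spread, so it does not measure how sure the order is within a heart. In every heart Col6a1 stood above Col6a2 (ratio 1.51 to 1.75) and Col1a1 above Col1a2 (1.15 to 1.45) at these lengths. Levels also depend on the length taken for each gene: over the longest coding transcript, Col1a2 stood at 15.7 and ranked above Col6a2, Col6a1, Col15a1 and Col1a1. Type IV genes took 49.9% of all collagen CPM, fibrillar genes 29.8%, FACIT genes 1.23% and the remaining types 19.0%.

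All 44 genes together summed to 991, 1420 and 556 CPM in wild-type hearts 1 to 3 and to 2282, 516 and 1647 CPM in knockout hearts 1 to 3. Knockout hearts 1 and 3 were the highest of all and knockout heart 2 was the lowest, just under wild-type heart 3, so the groups overlap. Collagens were 0.238% of all counts in knockout heart 1 and 0.0475% in knockout heart 2. In whole hearts, fewer matrix-producing cells and less collagen RNA per cell cannot be told apart.

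**Figure D2:**
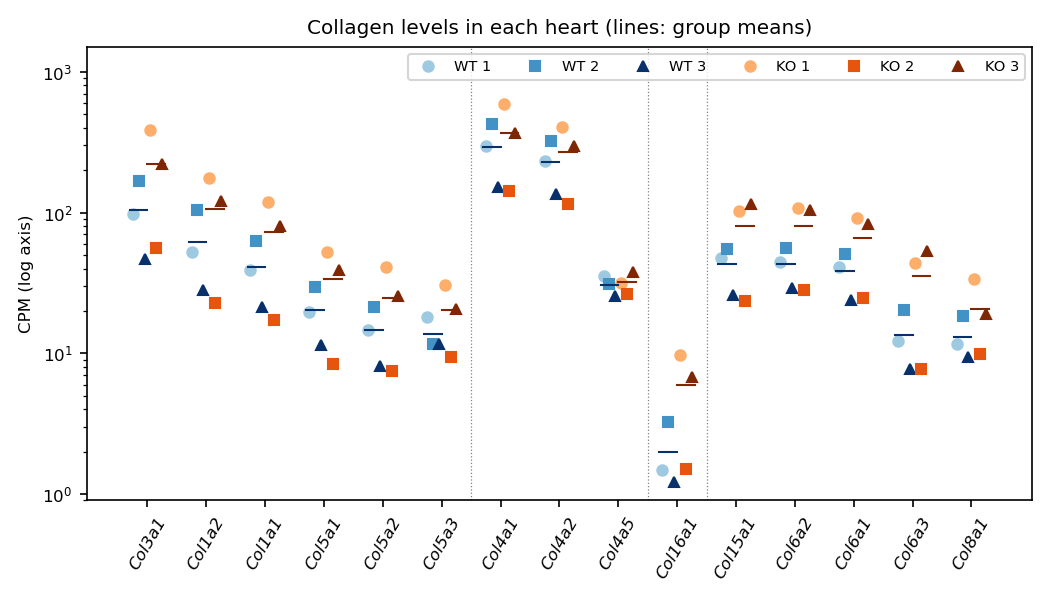
CPM (log y axis) of the 15 collagens described heart by heart, with wild-type hearts in blue, knockout hearts in orange to brown and horizontal lines at group means. Most genes show knockout hearts 1 and 3 at the top and wild-type heart 3 and knockout heart 2 at the bottom, while Col4a5 stays within 25.5 to 37.9 CPM.

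Fibrillar genes had the widest spread of the abundant classes, and their sum in knockout heart 1 was 6.60 times that in knockout heart 2. Of 11 fibrillar genes 8 were tested, all with a higher mean in knockout (median log2 fold change 0.74, range 0.20 to 1.09), and none passed the test. Col3a1, the sole chain of the fine-fibred type III (chromosome 1, 45311538 to 45349706, plus strand, GRCm38), was at 97.1, 167 and 47.1 CPM in wild-type hearts 1 to 3 and at 386, 55.6 and 223 CPM in knockout hearts 1 to 3. Knockout hearts 1 and 3 exceeded every wild-type heart and knockout heart 2 fell among the lowest. Means were 104 ± 60.1 CPM in wild type and 221 ± 165 CPM in knockout (SD, n = 3 each), and the log2 fold change was 1.09 (SE 0.69, 95% interval -0.53 to 2.72).

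Type I, the stiff main fibril of the heart, is a trimer of Col1a1 and Col1a2 chains. Col1a1 (chromosome 11, 94936224 to 94953042, plus strand) stood at 39.1, 63.2 and 21.5 CPM in wild type and 119, 17.4 and 79.8 CPM in knockout. Col1a2 (chromosome 6, 4504814 to 4541544, plus strand) stood at 52.2, 104 and 28.0 CPM against 177, 22.6 and 120 CPM. Both placed the 6 hearts in the same order, from knockout 1 and knockout 3 through wild type 2, 1 and 3 to knockout 2. Their log2 fold changes were 0.81 (SE 0.66) and 0.80 (SE 0.73).

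Type V chains join type I fibrils and limit their diameter. Col5a1 ran 19.7, 29.8 and 11.5 CPM in wild type and 52.8, 8.34 and 39.3 CPM in knockout. Col5a2, whose gene lies 24614 bases from Col3a1 on chromosome 1, ran 14.5, 21.2 and 8.06 CPM against 41.1, 7.44 and 25.7 CPM. Both repeated the heart order of type I. Col5a3 was less spread, at 18.0, 11.7 and 11.7 CPM in wild type and 30.6, 9.34 and 20.5 CPM in knockout. The log2 fold changes of Col5a1, Col5a2 and Col5a3 were 0.72 (SE 0.62), 0.77 (SE 0.59) and 0.55 (SE 0.41).

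The type IV genes gave smaller differences between genotypes than the other classes in median (log2 fold change 0.26 over 6 genes, all 6 tested and higher in mean), which was not tested. Col4a1 (chromosome 8, 11198423 to 11312826, minus strand) and Col4a2 (chromosome 8, 11312805 to 11449287, plus strand) point away from each other and their annotated 5′ ends overlap by 22 bases. Col4a1 stood at 295, 426 and 151 CPM in wild-type hearts 1 to 3 and 590, 141 and 366 CPM in knockout hearts 1 to 3. Col4a2 stood at 231, 321 and 135 CPM against 404, 114 and 296 CPM. For both, wild-type heart 2 was above knockout heart 3, so only knockout heart 1 exceeded all wild-type hearts. Their log2 fold changes were 0.33 (SE 0.54) and 0.25 (SE 0.48), and without knockout heart 1 they were -0.20 and -0.16. Without wild-type heart 3 that of Col4a2 was -0.03.

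Col4a3 and Col4a4, partners in the specialised network known from kidney, were low, at 1.17 to 3.71 CPM and 2.57 to 8.12 CPM, with log2 fold changes of 0.23 and 0.27. Col4a5 (X chromosome, 141475385 to 141689234, plus strand) varied less over hearts than the other type IV genes, with the same 2 lowest hearts. It ran 35.6, 31.1 and 25.5 CPM in wild type and 31.4, 26.4 and 37.9 CPM in knockout, a 1.49-fold range over hearts against 4.17-fold for Col4a1. Its log2 fold change was 0.06 (SE 0.19, 95% interval -0.39 to 0.50), which changed sign without wild-type heart 3 (-0.06) and without knockout heart 3 (-0.09) and was -0.0038 with the exon length trend taken out. Its head-to-head neighbour Col4a6 had only 3 to 50 reads per library and a log2 fold change of 1.42 (SE 0.80).

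Type VI genes varied together. Col6a1 was at 41.1, 51.0 and 23.8 CPM in wild-type hearts 1 to 3 and 91.5, 24.6 and 82.4 CPM in knockout hearts 1 to 3. Col6a2 was at 44.6, 55.8 and 29.1 CPM against 108, 28.2 and 104 CPM. Col6a3, the largest chain of the type, was at 12.2, 20.5 and 7.76 CPM against 44.2, 7.75 and 53.5 CPM. In all 3 genes, knockout hearts 1 and 3 lay above every wild-type heart and knockout heart 2 lay close to wild-type heart 3. The log2 fold changes were 0.78 (SE 0.49), 0.89 (SE 0.49) and 1.38 (SE 0.66), with unadjusted p of 0.155, 0.111 and 0.0742 in edgeR and adjusted p of 1.0 for each. Col6a6 was lower, at 1.07 to 8.42 CPM.

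Col15a1, a basement membrane proteoglycan core of vessels and muscle (chromosome 4, 47208161 to 47313167, plus strand), was the most abundant multiplexin. It stood at 47.4, 55.4 and 25.9 CPM in wild type and 103, 23.5 and 116 CPM in knockout (log2 fold change 0.91, SE 0.56). Its relative Col18a1, the source of endostatin, ran from 3.03 to 14.2 CPM with a log2 fold change of 0.77 (SE 0.58). Col8a1, a short-chain network collagen of vessel walls, stood at 11.7, 18.3 and 9.43 CPM against 33.6, 9.85 and 18.9 CPM (log2 fold change 0.66, SE 0.44).

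Among 9 FACIT genes 5 were tested, all with higher means in knockout and a median log2 fold change of 1.05. Col16a1 (chromosome 4, 130047840 to 130099283, plus strand), a minor fibril-associated chain, had the smallest p of the family. It stood at 1.49, 3.28 and 1.22 CPM in wild-type hearts 1 to 3 and at 9.68, 1.52 and 6.78 CPM in knockout hearts 1 to 3. Knockout heart 2 lay inside the wild-type range and the other 2 knockout hearts above it. The log2 fold change was 1.59 (SE 0.66, 95% interval 0.04 to 3.13), with an unadjusted p of 0.0457 and an adjusted p of 1.0 in edgeR. Col14a1 ran from 2.96 to 18.9 CPM (1.05, SE 0.65) and Col12a1 had only 3 to 68 reads per library (1.08, SE 0.74).

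Some members followed another order of hearts or varied little. Col13a1, a transmembrane collagen of muscle and nerve contacts, had the only negative log2 fold change (-0.44, SE 0.39). It stood at 2.53, 1.62 and 3.10 CPM in wild type and at 1.42, 2.76 and 1.20 CPM in knockout, so that wild-type heart 3 and knockout heart 2 were highest and knockout hearts 1 and 3 lowest, the reverse of most collagens. Col23a1, also transmembrane, was at 1.84, 1.46 and 1.13 CPM against 1.80, 1.31 and 1.52 CPM (0.07, SE 0.27). The fibrillar Col11a2 had 8 to 21 reads per library and was highest in knockout heart 2.

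The 15 untested genes had at most 19 reads in any library. They include the cartilage collagens Col2a1 (2 reads in all), Col9a1 (0), Col9a2 (39), Col9a3 (17), Col10a1 (10) and Col11a1 (6), and the skin anchoring collagens Col7a1 (39) and Col17a1 (14). The others were Col8a2 (63 reads in all), Col25a1 (44), Col26a1 (42), Col6a5 (12), Col24a1 (7), Col19a1 (1) and Col6a4 (0). For a gene with no reads the limit of 3 counts corresponds to 0.0731 to 0.10 CPM, depending on the library, counting error alone considered. Of 8 cartilage and valve markers 2 were tested, Comp at 1.10 to 3.67 CPM and Sox9 at 0.776 to 1.40 CPM. Cnmd reached 1.09 CPM, Acan stood at 0 to 0.105 CPM and Matn3 was at 0 in every heart.

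Collagens varied more between hearts than most genes. The range over the 6 hearts had a median of 1.94 on the log2 scale in the 29 tested collagens and 0.71 in all tested genes, and it exceeded 2 in 14 collagens (48.3%) against 3.38% of all genes. Knockout heart 1 was the highest for 18 collagens and knockout heart 3 for 8. Wild-type heart 3 and knockout heart 2 were the 2 lowest hearts for 23 of 29 collagens (79.3%), and for 29% of all tested genes. Relative to each gene's mean over hearts, the median collagen stood at -0.16, 0.17 and -0.87 in wild-type hearts 1 to 3 and at 1.01, -0.92 and 0.81 in knockout hearts 1 to 3. Once the dependence on exon length was taken out of each library, these values were -0.15, 0.11 and -0.69, and 0.89, -0.85 and 0.71.

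**Figure D3:**
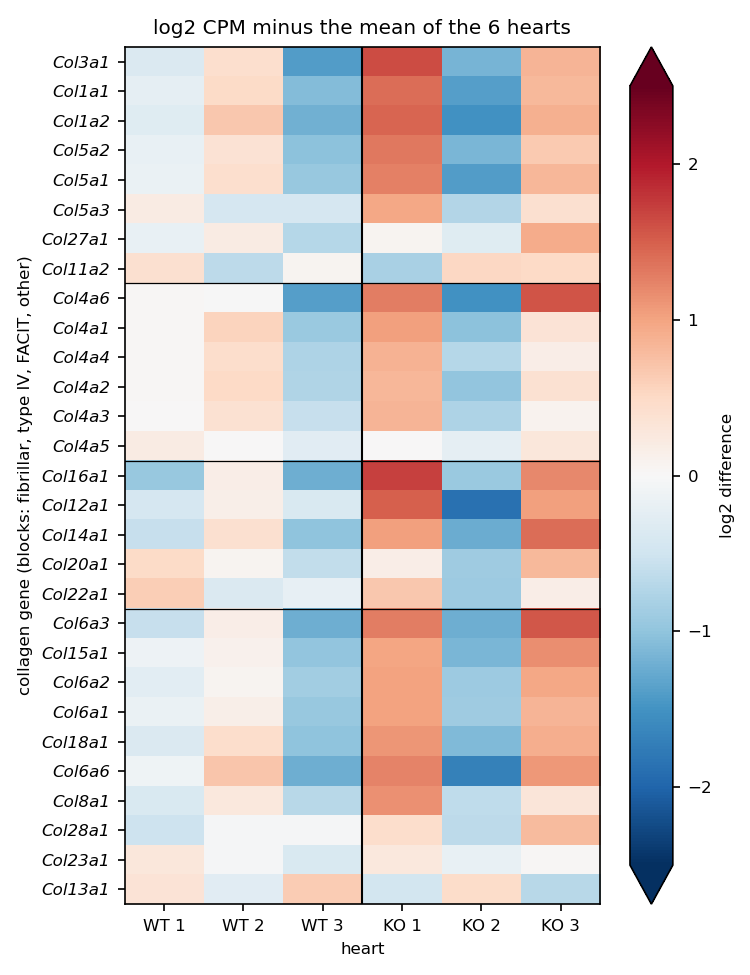
Log2 CPM of each tested collagen (rows) in each heart (columns) minus the mean of the 6 hearts, red above and blue below. Knockout hearts 1 and 3 are mostly red and wild-type heart 3 and knockout heart 2 mostly blue, with Col13a1 in the opposite colours and Col4a5 pale throughout.

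Promoter sequence was compared because most collagens shared their high and low hearts. RefSeq windows on GRCm38.p6 of 250 bases before to 50 after the start were at hand for 35 of 44 members, 38 windows in all. The GC box GGGCGG, bound by Sp1-type factors, was present on either strand in 60.5% of collagen windows and in 35.7% of all 32851 windows. The CCAAT box was present in 34.2% against 37.4%, the TATA box TATAAA in 13.2% against 13.6%, and the Smad-type element CAGACA in 23.7% against 21%, on either strand. GC content had a median of 59.8% in collagen windows and 52.7% in all, and these shares were not tested. The 100 bases before the start, free of annotated exons, are shown 5′ to 3′ for 4 genes that were highest in knockout heart 1 or 3 and low in knockout heart 2, and then for Col13a1, with the opposite order, and Col23a1, with a narrow range. They were chosen after their values were seen. Capitals mark matches to any of the 4 motifs on either strand, none of which overlap.
Col3a1, chr1:45311438-45311537, plus strand: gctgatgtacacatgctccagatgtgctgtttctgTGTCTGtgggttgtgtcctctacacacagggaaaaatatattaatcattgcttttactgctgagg
Col5a1, chr2:27886325-27886424, plus strand: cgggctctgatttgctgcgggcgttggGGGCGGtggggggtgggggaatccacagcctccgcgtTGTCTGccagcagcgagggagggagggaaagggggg
Col6a3, chr1:90843972-90844071, minus strand: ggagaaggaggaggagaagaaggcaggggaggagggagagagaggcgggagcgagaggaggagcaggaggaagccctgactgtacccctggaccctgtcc
Col8a1, chr16:57754738-57754837, minus strand: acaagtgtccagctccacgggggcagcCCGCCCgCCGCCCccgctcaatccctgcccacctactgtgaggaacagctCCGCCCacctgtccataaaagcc
Col13a1, chr10:61979109-61979208, minus strand: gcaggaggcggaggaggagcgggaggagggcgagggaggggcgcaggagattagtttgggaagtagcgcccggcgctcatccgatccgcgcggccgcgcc
Col23a1, chr11:51289820-51289919, plus strand: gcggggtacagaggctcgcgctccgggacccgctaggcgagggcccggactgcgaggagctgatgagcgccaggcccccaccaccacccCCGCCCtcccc
The Smad-type match lies 65 bases before the start in Col3a1 and 36 in Col5a1. GC boxes lie 73, 66 and 23 bases before the start in Col8a1, 73 in Col5a1 and 11 in Col23a1. Col6a3 and Col13a1 have none of the 4 motifs in these 100 bases. A match describes letters only.

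Marker transcripts of several cell types moved in part with the collagens, and their part in the result was not tested. Fibroblast markers (10 of 10 tested) summed to 1009, 1314 and 922 CPM in wild-type hearts 1 to 3 and to 1347, 736 and 1426 CPM in knockout hearts 1 to 3. Gsn, at 449 to 959 CPM, made up most of this sum. Wild-type heart 3 and knockout heart 2 were the 2 lowest hearts for 6 of 10 members. Mgp (49.1 to 89.7 CPM) and Dpep1 (26.8 to 48.0 CPM) were instead highest in wild-type heart 3. The defining fibroblast receptor Pdgfra ranged from 9.58 CPM in knockout heart 2 to 33.5 CPM in knockout heart 1, while the fibroblast factor Tcf21 ranged from 4.29 to 9.87 CPM and was lowest in wild-type heart 2. Epicardial and mesothelial markers (10 of 10 tested) summed to 16.5, 11.3 and 10.1 CPM against 41.8, 8.51 and 23.7 CPM, and all 10 were highest in knockout heart 1. Their defining genes were low, with Wt1 at 1.79 to 5.62 CPM and Upk3b at 0.620 to 10.5 CPM.

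Endothelial markers (8 of 8 tested) summed to 504, 673 and 391 CPM in wild type and to 740, 372 and 591 CPM in knockout, with Pecam1 at 79.1 to 140 CPM. Macrophage markers (6 of 6 tested) summed to 95.2, 126 and 68.8 CPM against 177, 54.8 and 102 CPM. Cell cycle genes (6 of 6 tested) ran from 2.18 to 6.14 CPM in wild type and were 31.3, 4.55 and 9.30 CPM in knockout hearts 1 to 3. Smooth muscle and pericyte markers (10 of 10 tested) summed to 975 to 1177 CPM, a sum made mostly of Rgs5, Abcc9 and Acta2. Of its less abundant members, Pdgfrb (16.2 to 54.7 CPM), Myh11 (5.86 to 26.1 CPM) and Cspg4 (6.86 to 25.7 CPM) were lowest in knockout heart 2 and highest in knockout heart 1 or 3. Others went another way: Kcnj8 (28.1 to 41.5 CPM) was highest in wild-type heart 3 and Tagln (5.82 to 9.77 CPM) lowest in wild-type heart 1. Wild-type heart 3 and knockout heart 2 were the 2 lowest hearts for 4 of 10 members. The median member of the list stood at -0.21, 0.17 and -0.26 (log2, relative to its mean) in wild-type hearts 1 to 3 and at 0.52, -0.42 and 0.30 in knockout hearts 1 to 3, an order close to that of the collagens. Cardiomyocyte markers (7 of 7 tested) summed to between 51864 and 63749 CPM, but members went different ways. Myh6 (9167 to 29523 CPM) and Ryr2 (779 to 1846 CPM) were lowest in wild-type heart 3 and knockout heart 2. Myl2 (5054 to 11846 CPM), Pln (5202 to 9182 CPM), Tnni3 (3346 to 5693 CPM) and Tnnt2 (5302 to 7349 CPM) were highest in those hearts. Actc1 followed neither order. Summed levels of the remaining lists were 2.15 to 4.97 CPM for valve and cartilage (2 of 8 tested), 3.45 to 9.06 for Schwann cells (5 of 6), 0.696 to 1.25 for skeletal muscle (1 of 6) and 0.0345 to 0.388 for adipocytes (0 of 5).

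**Figure D4:**
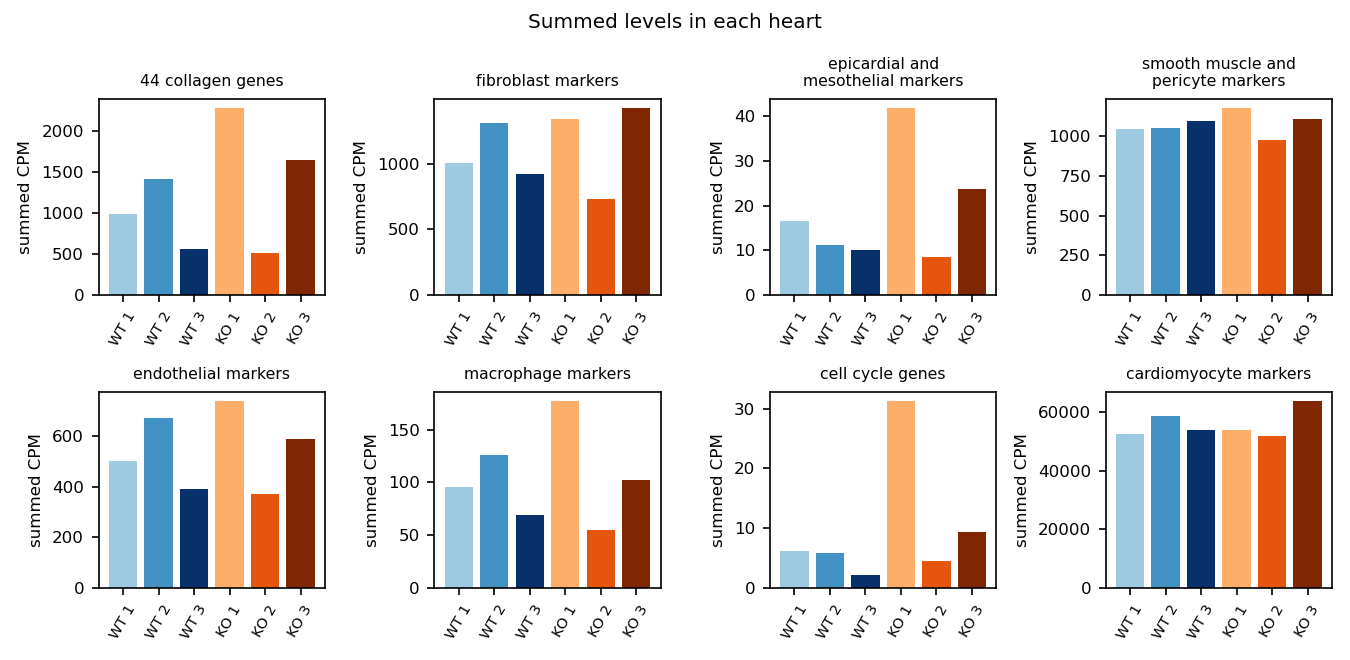
Summed CPM in each heart (bars, 1 library each) of the 44 collagens and of 7 marker lists, each panel on its own axis from 0. Collagen, fibroblast, epicardial, endothelial, macrophage and cell cycle sums share the lowest hearts, wild type 3 and knockout 2. Smooth muscle and cardiomyocyte sums do not. All sums but those of fibroblast and cardiomyocyte markers peak in knockout heart 1.

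The collagen values depended on which hearts entered the fit. Without knockout heart 1 the median log2 fold change was 0.24 over 29 collagens and 7 of them were negative. In that fit 0 had an unadjusted p under 0.05 (0.821% of all genes) and 0 an adjusted p under 0.05 (0.00678%). Without wild-type heart 3 the median was 0.46 over 32 collagens, with 0 under an unadjusted p of 0.05 (1.14% of all genes). Without knockout heart 2 the median was 1.08 over 32 collagens, of which 20 had an unadjusted p under 0.05, against 7.60% of all genes. Of these, 19 had a higher value in knockout, against 5.22% of all genes, and 1, Col13a1, a lower one. The adjusted threshold was passed by 0 collagens and by 0.00675% of all genes. In the fits of 32 collagens, filtering anew let in Col8a2, Col25a1 and Col26a1. Col25a1, with most reads in knockout hearts 1 and 3, is among the 20 (unadjusted p = 0.0163 in edgeR). Knockout heart 2 had the lowest collagen sum and most collagens moved together over hearts, so these counts are not independent results.

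With wild-type heart 3 and knockout heart 2 both left out, 2 hearts were compared with 2. The median was 0.89, and 18 of 32 collagens had an unadjusted p under 0.05, all higher in knockout, where 6.71% of all genes did in either direction and 4.35% as higher. Col25a1, let in by filtering anew, is among the 18 (unadjusted p = 0.0273 in edgeR). The smallest adjusted p of a collagen in edgeR was 0.530, for Col15a1, while 0.0137% of all genes passed. With these 2 libraries as a separate level in a fit of all 6, 9 of 29 collagens had a higher value at an unadjusted p under 0.05, against 2.65% of all genes (4.30% in either direction). No label sets these 2 libraries apart, and they were picked by their values in these data. They were the 2 lowest hearts for 23 of 29 collagens, so the counts of both fits follow in part from that choice. Wild-type heart 2 also moved the values: the median was 1.02 without it.

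**Figure D5:**
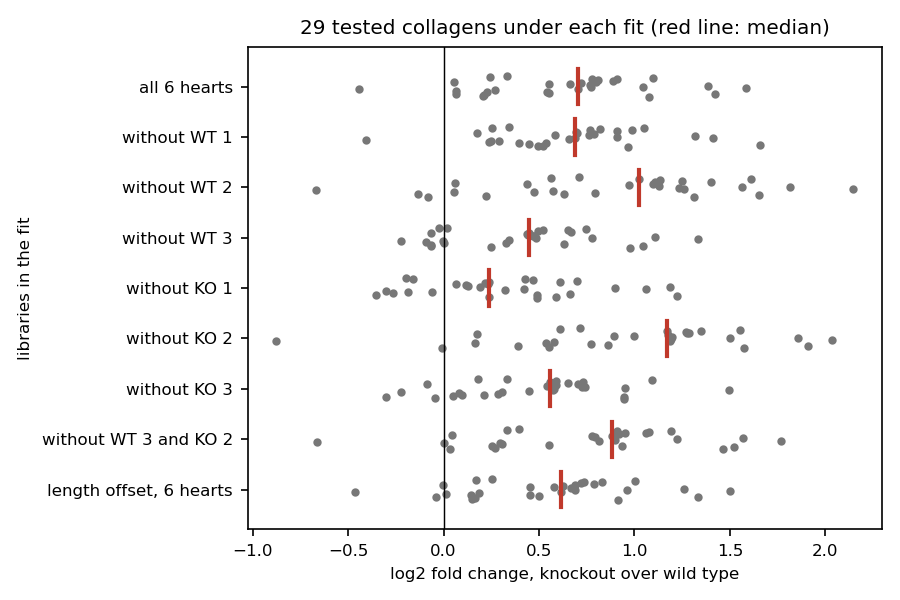
Log2 fold changes (x axis) of the 29 collagens tested with all 6 hearts (grey points, red line at the median) when libraries are left out or an offset for exon length is added. The median moves from 0.24 without knockout heart 1 to 1.17 without knockout heart 2.

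Most ratios of chains were steadier than the levels of their chains, and not only for chains that assemble into 1 trimer. Scaled by exon length, Col6a1 over Col6a2 was 1.75, 1.74 and 1.56 in wild-type hearts 1 to 3 and 1.62, 1.66 and 1.51 in knockout hearts 1 to 3, a 1.16-fold range where Col6a1 itself spanned 3.84-fold. Col4a1 over Col4a2 ranged 1.30-fold, Col1a1 over Col1a2 1.26-fold, Col5a1 over Col5a2 1.36-fold and Col4a3 over Col4a4 1.20-fold. Col6a3 over Col6a1, also both of type VI, moved more (2.18-fold), from 0.109 in wild-type heart 1 to 0.238 in knockout heart 3. Col4a5 over Col4a1 moved 3.51-fold, more than Col4a5 itself (1.49-fold). Chains of different types also held close: Col3a1 over Col1a1 ranged 1.47-fold and over Col1a2 1.53-fold, where Col3a1 itself spanned 8.19-fold.

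The balance of type III to type I, as Col3a1 over Col1a1, was the 1 ratio of 9 whose groups did not overlap. Groups do not overlap in a share of 0.1 of splits of 3 against 3, so 1 of 9 lies near that share. The pairs with type III were added later than the planned ones. Col3a1 over Col1a1 was 1.66, 1.76 and 1.47 in wild-type hearts 1 to 3 and 2.16, 2.14 and 1.87 in knockout hearts 1 to 3, with means of 1.63 ± 0.15 and 2.06 ± 0.16 (SD, n = 3 each, exact two-sided permutation p = 0.1, the smallest that 3 against 3 allows, 0.54 when adjusted over the 9 ratios). Knockout heart 2, low in both genes, shared the higher ratio. Against the other type I chain the groups overlapped slightly: Col3a1 over Col1a2 averaged 2.17 ± 0.16 in wild-type hearts and 2.74 ± 0.38 in knockout hearts (SD, n = 3 each, exact two-sided permutation p = 0.2). A length factor common to all hearts changes these ratios in size but not in their order between hearts.

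Genes that make, cut, bind or sense collagen were taken from 5 lists of 70 genes, of which 67 were tested. None passed the test (0.00689% of all genes did), and 2 had an unadjusted p under 0.05 against 1.23% of all genes (Lum and Fap). Values were higher in knockout for 54 and lower for 13, where 52.3% of all genes tested were higher. The lists shared in part the high and low hearts of the collagens, so counts of direction are not independent results. Groups did not overlap for 2 genes higher in knockout (Lum and Fap; 2.18% of all genes) and 1 lower (Adamts3; 1.90%), so these shares of 67 lie near those of all genes. The list of endoplasmic reticulum enzymes and chaperones that hydroxylate and fold the chains also holds Mia2, Mia3, Klhl12 and the matrix protein Sparc. It differed little in median: 16 of 23 were higher, with a median log2 fold change of 0.02, and for 21 of them the 95% interval lay within a factor of 2. Crtap and P3h3, both parts of prolyl 3-hydroxylation, were at 0.30 (SE 0.19) and 0.52 (SE 0.34). The whole list summed to 1239 to 1499 CPM across hearts whose collagen sum ranged 4.42-fold, but its members went different ways. P4hb was highest in wild-type heart 3 and knockout heart 2 (265 and 248 CPM), where Sparc was lowest (225 and 252 CPM). These were the 2 lowest hearts for 11 of 23 members, against 29% of all tested genes. The median member stood there at -0.11 and -0.18 (log2, relative to its mean), and at 0.13 and 0.09 in knockout hearts 1 and 3.

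Extracellular processing genes, the propeptide proteases and lysyl oxidases that crosslink fibrils, showed 11 of 13 higher and a median of 0.36. Loxl2, a lysyl oxidase, was at 0.59 (SE 0.42) and Tll1, a propeptide protease with a mean under 1 CPM, at 1.01 (SE 0.58). Adamts3, which cuts procollagen propeptides, stood at 3.45, 3.57 and 3.49 CPM in wild type and 3.01, 2.79 and 3.12 CPM in knockout (-0.24, SE 0.17). The list's median was -0.01 without knockout heart 1, 0.18 without wild-type heart 3, 0.62 without knockout heart 2 and 0.64 without wild-type heart 2. Among fibril-binding proteins 9 of 10 were higher. Their median of 0.45 was 0.15 without knockout heart 1, 0.21 without wild-type heart 3, 0.26 without knockout heart 3, 0.77 without wild-type heart 2 and 0.84 without knockout heart 2. Lum, a proteoglycan that binds fibrils, was at 30.3, 38.0 and 38.6 CPM in wild type and 63.9, 40.1 and 75.7 CPM in knockout, so that its groups did not overlap (log2 fold change 0.75, SE 0.24, adjusted p = 1.0 in edgeR). Postn, periostin, stood at 66.2 CPM in knockout heart 1 and at 6.57 to 24.0 CPM in the others (1.63, SE 0.70).

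All 10 tested collagen receptors were higher, where 52.3% of all genes tested were. Their median was 0.20 and ran from 0.05 without wild-type heart 3 to 0.48 without wild-type heart 2. It was 0.06 without knockout heart 1, 0.12 without knockout heart 3 and 0.41 without knockout heart 2. The smallest p belonged to Mrc2, which takes up collagen fragments (0.65, SE 0.53), and Lair1, an inhibitory receptor of leukocytes (0.32, SE 0.27). Of 11 breakdown enzymes and inhibitors 8 were higher; the median of 0.25 was 0.57 without knockout heart 2, 0.51 without wild-type heart 2 and 0.01 without knockout heart 1. Fap, a fibroblast surface protease, was at 2.09, 1.92 and 1.67 CPM in wild type and at 2.75, 2.86 and 3.14 CPM in knockout. Its groups did not overlap, knockout heart 2 included, and its log2 fold change was 0.62 (SE 0.19, unadjusted p = 0.0139, adjusted p = 1.0 in edgeR). The inhibitor Timp4 was at -0.68 (SE 0.35).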

How the data were processed

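RNA was measured in 3 wild-type and 3 knockout mouse hearts, purified on RNeasy columns and, per the labels' protocols, made into libraries with the NEBNext Ultra II RNA reagents. The authors deposited whole-number read counts per Ensembl gene, not normalized. The submitters' processing notes list GRCm38.p6 as a build and STAR, Subread 1.5.2, featureCounts and DESeq2 as tools, with no order. The sources used here give no annotation release, strand setting or rule for multi-mapping reads, so near-identical copies and antisense partners cannot be told apart. Exons of 1 tested collagen, Col4a3, were shared with other genes over more than 5% of their length. The table has 49315 identifiers, of which 49056 matched a symbol.

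Columns were matched to samples by title. Types, positions and exon lengths came from GENCODE M21. Genes were kept by filterByExpr (minimum count 10, minimum total 15), scaled by TMM and tested in edgeR 4.0.16 (R 4.3.3) by quasi-likelihood, with Benjamini-Hochberg adjustment over 14508 genes and a threshold of 0.05. Standard errors are the fold change over the root of F. CPM used TMM-scaled library sizes. Reads carry no molecular identifiers, so counting limits cover counting error only. The 3 hearts of a group are taken as separate animals. The edgeR p-values set the difference between groups against the spread between hearts, estimated with the help of all tested genes.

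Members and lists were chosen with earlier results of these data known. Heart-by-heart values are given for collagens with a mean of at least 10 CPM, the 3 smallest p and any past the threshold. From each pathway list the 2 genes with the smallest p are named, most of them by fold change and SE only. Genes named beyond these (Col13a1, Col23a1, Col4a3, Col4a4, Col4a6, Col6a6, Col11a2, Col12a1, Col14a1, Col18a1, Adamts3 and marker examples) were chosen after their values were seen. Pairs with type III, Col4a3/Col4a4 and Col4a5/Col4a1 and the permutation test of ratios were added later. The fit was tested on simulated data. Alternatives were DESeq2 1.42.0, limma 3.58.1 (voom), other scalings and filters, left-out libraries and a replicate block. A length offset (spline with 6 degrees of freedom), a level for 2 libraries and transcript lengths were added after seeing the data. Same-numbered hearts correlated at 0.18, -0.65 and -0.40 in their deviations from group means, and were not taken as pairs. Deviations within a group of 3 sum to 0, which ties these values together, so they cannot exclude a pairing by number.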

Additional observations from a re-analysis of the deposited data

How the results depend on the processing

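The count of collagens called was 0 under every alternative run, and the median log2 fold change of tested collagens stayed positive, from 0.24 (without knockout heart 1) to 1.08 (without knockout heart 2). DESeq2 size factors gave 0.69, library size alone 0.75, no filter 0.57 over 42 genes, 1 CPM in 3 libraries 0.72, DESeq2 0.54 over 42 genes (0.68 over the 29), limma-voom 0.51, the length offset 0.62 and a separate level for wild-type heart 3 and knockout heart 2 0.52. The count of all genes called was 1 (Arrdc4), with 0 to 1 when 1 heart was left out (0 without knockout heart 3) and 2 (Arrdc4 and Spp1) without wild-type heart 3 and knockout heart 2. With a replicate block the count of genes called was 0, that of collagens 0 and the collagen median 0.57. The labels state no pairing by number, and wild-type heart 3 correlated best with knockout heart 2 (0.68), which cannot exclude one. At an unadjusted p under 0.05 there were 179 genes in all, against 72 with the block, 447 without a filter, 624 with the separate level, 981 without both libraries and 94 to 1126 when 1 heart was left out (1126 without knockout heart 2), and the count of collagens went from 1 to 0, 6, 9, 18 and 0 to 20. Leaving out 1 heart gave ranges of -0.20 to 0.72 for Col4a1, -0.16 to 0.61 for Col4a2 and -0.089 to 0.17 for Col4a5, and the length offset gave -0.0038 for Col4a5. List medians ranged from -0.0046 to 0.13 for modification and folding, -0.0074 to 0.64 for processing and crosslinking, 0.15 to 0.84 for fibril-binding proteins, 0.05 to 0.48 for receptors and 0.0075 to 0.57 for breakdown. Over the longest coding transcript mean ratios were 0.636 for Col1a1/Col1a2, 2.94 for Col3a1/Col1a1, 1.86 for Col3a1/Col1a2, 1.24 for Col4a1/Col4a2, 0.540 for Col4a3/Col4a4, 1.07 for Col5a1/Col5a2 and 0.979 for Col6a1/Col6a2. These follow from the lengths alone. Depth limits the 15 untested members and the tested ones with few reads, such as Col20a1, Col11a2, Col28a1, Col4a6 and Col12a1.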
